A study of Mus musculus with 15 samples.

Results

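A set of 10 nuclear genes for antioxidant enzymes of mitochondria and cytosol were followed through dexamethasone suppression and recovery of the mouse adrenal gland. They were Prdx3, Srxn1, Txnrd1, Txnrd2, Nnt, Gpx1, Gpx4, Sod1, Sod2 and Cat, chosen by gene symbol. Each of the 10 genes was measured by 1 probe set annotated to it alone, which gave 10 of the 32736 probe sets of the arrays and 10 of the 21439 genes tested. RNA of whole adrenal glands from male C57BL/6J wild-type mice was measured on 15 one-colour Affymetrix arrays. Control glands, on 4 arrays, were taken before dexamethasone. Withdrawal glands, on 3 arrays, were taken as 14 days of oral dexamethasone, given through drinking water, ended. Recovery glands were taken at day 3 (4 arrays) and at day 7 (4 arrays) after the drug was removed. Every array is titled as a biological replicate, and the titles do not say whether it holds glands of 1 mouse or of several. The labelled age is 6 weeks for all arrays. This may be the age at the start, so ages at collection may differ between groups by the days of treatment and recovery. The controls preceded treatment, so treatment and the days that had passed cannot be told apart. All groups share the C57BL/6J background, a strain known for a natural deletion within Nnt that leaves it without working Nnt protein, so the Nnt values here are transcript levels of a defective allele. Whether the Nnt probe set reads exons inside or outside the deletion is not given in the labels or array files used, so what part of the transcript its values reflect is not known.

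Steroid synthesis in adrenal mitochondria passes electrons to cytochrome P450 enzymes, and leakage of these electrons yields superoxide and then hydrogen peroxide. Superoxide dismutases turn superoxide into peroxide. Peroxiredoxins, glutathione peroxidases and catalase remove peroxide, and thioredoxin reductases and NADPH keep the thiol systems reduced. Prdx3, the peroxiredoxin of mitochondria, is inactivated by over-oxidation of its cysteine during steroid synthesis and is restored by sulfiredoxin, the product of Srxn1. In humans, loss of NNT or TXNRD2 causes familial glucocorticoid deficiency.

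Levels are log2 values of robust multi-array average (RMA) normalization, so a difference of 1 is a doubling. They are given as mean ± SD, and differences as log2 ± standard error from 1 limma model of all 15 arrays. A gene is said to have risen or fallen only with a Benjamini-Hochberg adjusted p under 0.05 over all 21439 genes. The array medians lay between 1.55 and 1.64, and the 10 genes ranged upwards from 4.82, so none was near that floor. Cortex markers were present, with 0 of 8 at or under the floor in any group, while 5 of 5 kidney markers lay there in all groups. Of 4 liver markers 0 lay there in any group. Of 5 adipocyte markers 0 lay there at withdrawal and 1 in each other group, so transcripts listed for these tissues were measured too. No pair of arrays was identical, and the mean correlation of an array with its group ran from 0.987 to 0.991 across genes.

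Prdx3 was the 1 gene of the 10 that fell under dexamethasone, and it was higher again at both recovery times. Txnrd2, the thioredoxin reductase of mitochondria, rose between withdrawal and day 3. The other 8 genes passed the threshold in none of the 6 comparisons by this limma fit. At withdrawal 4.3% of all genes passed in either direction and 1.81% were lower. Between withdrawal and day 3 2.25% passed, with 1.37% higher, and the members that passed were 2 of 10. Between withdrawal and day 7 1.88% passed, with 0.98% higher, and the member that passed was 1 of 10. The plot of values by array shows all 10 genes.

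**Figure D1:**
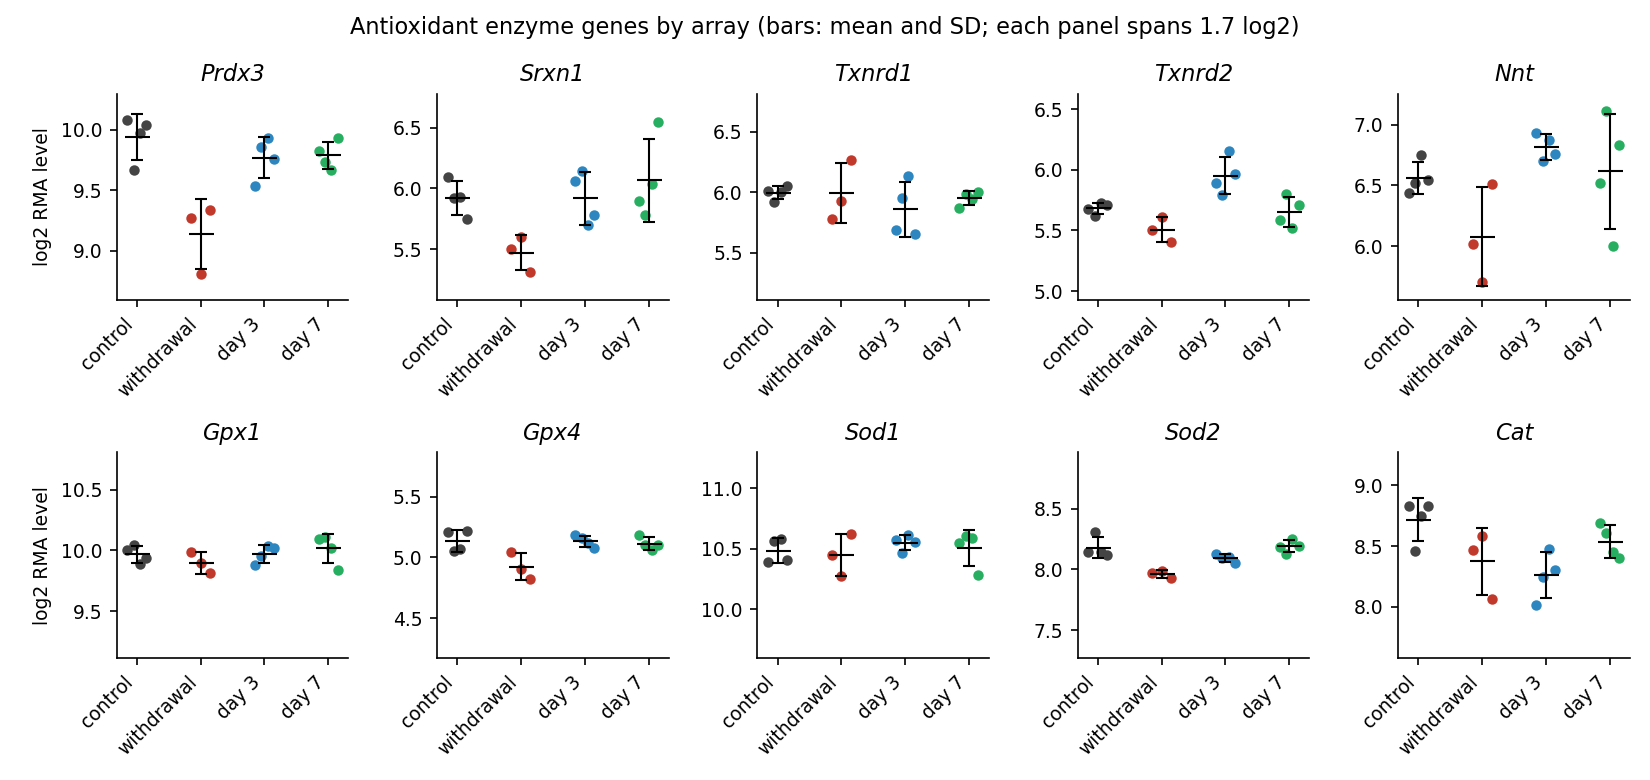
Log2 RMA level of each of the 10 genes (vertical axis, each panel spanning 1.7 log2) in the 4 groups (horizontal axis). Points are arrays and bars are mean and SD. The 3 withdrawal arrays of Prdx3, at 8.81 to 9.34, lie under all other arrays, while Gpx1 and Sod1 are nearly level.

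Prdx3 (probe set 17366141) stood at 10.08, 9.67, 9.97 and 10.04 on the 4 control arrays. On the withdrawal arrays it stood at 9.27, 8.81 and 9.34. At day 3 the values were 9.53, 9.86, 9.93 and 9.75, and at day 7 they were 9.82, 9.73, 9.67 and 9.93. Every withdrawal array lay under every other array, and replicate 2 was the lowest of them. The control mean of 9.94 ± 0.19 (SD, n = 4) fell by 0.80 ± 0.14 to 9.14 ± 0.29 (n = 3), a 1.74-fold lower level (limma, adjusted p = 0.00509). This difference had the rank 196 from the lowest among 21439 genes. It passed in each of the 7 fits without 1 array of these groups, with differences from -0.90 to -0.64, the latter without withdrawal replicate 2 (adjusted p = 0.0315).

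The rise of Prdx3 from withdrawal was 0.63 ± 0.14 at day 3 (limma, adjusted p = 0.0323) and 0.65 ± 0.14 at day 7 (adjusted p = 0.0304). Its means were then 9.77 ± 0.17 and 9.79 ± 0.11 (n = 4 each). Both calls lay near the threshold, and each passed in only 2 of 7 fits without 1 array. The day 3 call was lost without withdrawal replicate 1 (adjusted p = 0.052) or 2 (0.154) and without day 3 replicate 2 (0.0772), 3 (0.0786) or 4 (0.0683). The day 7 call was lost without withdrawal replicate 1 (adjusted p = 0.0506) or 2 (0.142) and without day 7 replicate 1 (0.0788), 2 (0.0596) or 4 (0.0881). The differences over all 7 such fits ran from 0.46 to 0.73 for day 3 and from 0.48 to 0.75 for day 7. Against control, Prdx3 differed by -0.17 ± 0.13 at day 3 (adjusted p = 0.732) and by -0.15 ± 0.13 at day 7 (0.931), with 95% intervals of -0.45 to 0.11 and -0.43 to 0.13. The order of its group means was control, day 7, day 3 and withdrawal, and of the neighbours in this order only day 3 and withdrawal differed past the threshold.

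Srxn1 (probe set 17377666), the reductase that restores over-oxidized peroxiredoxin, also had its lowest mean at withdrawal, without passing. Its control values were 6.10, 5.92, 5.93 and 5.75, and its withdrawal values 5.50, 5.60 and 5.31. At day 3 it stood at 6.06, 6.14, 5.69 and 5.78, and at day 7 at 5.89, 5.78, 6.04 and 6.55. All 3 withdrawal arrays lay under the other 12, and day 7 replicate 4 was the highest array. Withdrawal differed from control by -0.45 ± 0.17 (limma, adjusted p = 0.167, unadjusted p = 0.0166), from day 3 by the same size with day 3 higher (0.45 ± 0.17, adjusted p = 0.219), and day 7 differed from withdrawal by 0.59 ± 0.17 (adjusted p = 0.0912). Over all alternative fits the adjusted p for day 7 against withdrawal never went below 0.0506. Day 3 and control had means of 5.92 each, and the 95% interval of their difference was -0.33 to 0.33.

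The promoters of Prdx3, Srxn1 and Txnrd2 are shown because these enzymes form the mitochondrial peroxiredoxin branch. They were also chosen because in all 3 the withdrawal arrays lay under the control arrays. For Txnrd2 the gap was narrow (5.61 against 5.62), and of the 3 only Prdx3 passed. The 150 bases before each annotated start are from RefSeq (GRCm38.p6), written 5′ to 3′ on the gene's strand, with matches to the searched motifs in capitals.
Prdx3, chr19:60874539-60874688, minus strand: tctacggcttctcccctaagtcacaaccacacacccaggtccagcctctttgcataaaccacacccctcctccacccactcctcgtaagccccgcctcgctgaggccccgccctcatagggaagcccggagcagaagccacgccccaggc
Srxn1, chr2:152105374-152105523, plus strand: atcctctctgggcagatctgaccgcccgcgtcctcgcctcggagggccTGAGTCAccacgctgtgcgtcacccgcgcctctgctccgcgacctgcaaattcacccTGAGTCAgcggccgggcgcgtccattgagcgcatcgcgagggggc
Txnrd2, chr16:18426267-18426416, plus strand: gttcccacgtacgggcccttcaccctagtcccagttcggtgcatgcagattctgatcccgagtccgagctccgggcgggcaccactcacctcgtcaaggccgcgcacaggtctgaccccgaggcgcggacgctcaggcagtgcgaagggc

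The motifs, 4 in all, were searched on both strands in windows of 250 bases before to 50 after each start. They were TGANTCA (AP-1), TGACNNNGC (the antioxidant response element core bound by NRF2), TGACGTCA (the cAMP response element) and AAGGTCA (an NR5A1 monomer site), and a base can belong to matches of more than 1 motif. The tables held 14 windows for 9 of the 10 genes; Nnt had none. The AP-1 letters stood in 1 of the 14 windows, that of Srxn1, at -102 to -96 and at -45 to -39 from the start, and in 7.81% of all 32851 windows. The letters TGACNNNGC were found in 3 of the 14 windows, of Srxn1 (after the start), Sod1 and Txnrd1, and in 12.4% of all windows. The cAMP response element stood in 1.79% and the NR5A1 monomer site in 4.72% of all windows, and in 0 of the 14. A match describes these letters and does not show that a factor binds. Forms of these motifs with other letters were not searched, so a window without a match may still hold such an element.

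Txnrd2 (probe set 17323711), which reduces mitochondrial thioredoxin, stood at 5.68, 5.62, 5.72 and 5.71 in control. At withdrawal the values were 5.50, 5.61 and 5.41. At day 3 they were 5.89, 5.79, 6.15 and 5.97, and at day 7 5.59, 5.80, 5.52 and 5.71. The day 3 arrays lay over all control and withdrawal arrays, and day 3 replicate 2 lay just under the highest day 7 array. The mean rose by 0.44 ± 0.10 from 5.51 ± 0.10 (n = 3) at withdrawal to 5.95 ± 0.15 (n = 4) at day 3, 1.36-fold (limma, adjusted p = 0.0338). This call held in 1 of 7 fits without 1 array, the fit without day 3 replicate 2. It was lost without withdrawal replicate 1 (adjusted p = 0.0894), 2 (0.0609) or 3 (0.122) and without day 3 replicate 1 (0.0548), 3 (0.0806) or 4 (0.0797), at differences from 0.38 to 0.50.

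Txnrd2 at day 3 differed from control by 0.27 ± 0.09 (limma, adjusted p = 0.326, unadjusted p = 0.0123), with no overlap of the groups, which 2.75% of all genes also showed in that direction. Day 7 differed from day 3 by -0.30 ± 0.09 (adjusted p = 0.489, unadjusted p = 0.0066). Day 7 and control had means of 5.65 and 5.68. Withdrawal differed from control by -0.17 ± 0.10 (limma, adjusted p = 0.42, unadjusted p = 0.106), with a 95% interval of -0.39 to 0.04. The highest withdrawal array of Txnrd2 lay just under its lowest control array. The cytosolic reductase Txnrd1 (probe set 17235915) had means of 6.00 for control, 5.99 for withdrawal, 5.86 for day 3 and 5.95 for day 7, and passed in no comparison. Its withdrawal arrays spread from 5.78 to 6.27 and its day 3 arrays from 5.66 to 6.13, wider than the control arrays at 5.92 to 6.05. The 95% interval for Txnrd1 at withdrawal against control was -0.28 to 0.27.

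Nnt (probe set 17296489), the proton-driven transhydrogenase that supplies mitochondrial NADPH, spread widely within groups, with an SD of 0.41 at withdrawal and 0.47 at day 7 against 0.13 for control and 0.11 at day 3. Its control values were 6.44, 6.52, 6.75 and 6.54. At withdrawal they were 6.01, 5.70 and 6.51, at day 3 6.93, 6.70, 6.87 and 6.76, and at day 7 6.52, 7.11, 6.00 and 6.83. Withdrawal replicate 3 lay among the controls, and day 7 replicate 3 lay as low as withdrawal replicate 1. The difference of 0.74 ± 0.22 between withdrawal and day 3 did not pass (limma, adjusted p = 0.107, unadjusted p = 0.00418), although the 2 groups did not overlap. Withdrawal against control gave -0.48 ± 0.22 (adjusted p = 0.271), and day 7 against withdrawal 0.54 ± 0.22 (0.274).

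Among glutathione peroxidases, Gpx4 (probe set 17235166), which reduces lipid peroxides in membranes, had withdrawal values of 5.04, 4.91 and 4.82. They lay under the control values of 5.21, 5.05, 5.07 and 5.21 and under all recovery arrays, which ran from 5.06 to 5.18. The gap to the lowest control was narrow (5.04 against 5.05). The difference from control was -0.21 ± 0.08 (limma, adjusted p = 0.204, unadjusted p = 0.0242). Day 3 and day 7 differed from withdrawal by 0.21 ± 0.08 (adjusted p = 0.263) and 0.19 ± 0.08 (0.329). The general peroxidase Gpx1 (probe set 17521681) had group means of 9.97, 9.90, 9.97 and 10.02 in the order of the study, and its groups overlapped in each comparison. The 95% interval of its withdrawal difference from control, -0.26 to 0.12, leaves room for a level between 16.8% lower and 8.96% higher.

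The mitochondrial manganese enzyme Sod2 (probe set 17333347) had withdrawal values of 7.97, 7.99 and 7.93. Its control values were 8.14, 8.31, 8.14 and 8.12, its day 3 values 8.13, 8.10, 8.11 and 8.05, and its day 7 values 8.18, 8.13, 8.25 and 8.19. The withdrawal arrays were again under all other arrays, by a small step. Sod2 differed by -0.22 ± 0.08 at withdrawal against control (limma, adjusted p = 0.154, unadjusted p = 0.0145) and by 0.23 ± 0.08 at day 7 against withdrawal (adjusted p = 0.179). Sod1 (probe set 17326956), the copper-zinc enzyme of the cytosol, had means of 10.48, 10.45, 10.55 and 10.51, and its arrays ranged from 10.28 to 10.62 with overlap in all comparisons. The 95% interval of its withdrawal difference from control was -0.26 to 0.19.

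Catalase (Cat, probe set 17388803), the peroxide-splitting enzyme of peroxisomes, had its lowest mean at day 3 and not at withdrawal. Its control values were 8.83, 8.46, 8.75 and 8.83, and its withdrawal values 8.47, 8.59 and 8.06. At day 3 it stood at 8.02, 8.24, 8.48 and 8.31, and at day 7 at 8.69, 8.61, 8.46 and 8.40. Of the day 3 arrays, 3 of 4 lay under all controls. The difference of day 3 from control was -0.46 ± 0.13 (limma, adjusted p = 0.215, unadjusted p = 0.00374), against -0.34 ± 0.14 at withdrawal (0.228) and -0.18 ± 0.13 at day 7 (0.917). None of the 3 passed. Transcripts of liver, a tissue rich in catalase, were highest on day 3 replicate 1, where Alb reached 8.24 and Cat was lowest, and their part in the Cat values was not tested.

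At withdrawal 10 of the 10 genes had a lower mean than in control, against 51.3% of all genes. Their median difference was -0.21, and that of all genes -0.01. The mean of Txnrd1 was lower by under 0.01 and turned to the other side of 0 with arrays centred on their medians and in the fits without control replicate 1 or 4 or withdrawal replicate 1 or 2. The mean of Sod1 also turned, to 0.05 over control, without withdrawal replicate 2. In 5 of the 10, Prdx3, Srxn1, Txnrd2, Gpx4 and Sod2, the withdrawal arrays lay under all control arrays without overlap, which 6.94% of all genes showed in that direction. Between withdrawal and day 3 the same step upwards without overlap stood in 6 of the 10 (Prdx3, Srxn1, Txnrd2, Nnt, Gpx4 and Sod2), against 6.39% of all genes. Between withdrawal and day 7 it stood in 4 (Prdx3, Srxn1, Gpx4 and Sod2), against 6.46%. These comparisons share the 3 withdrawal arrays. In Prdx3, Srxn1, Gpx4 and Sod2 the withdrawal arrays lay under all other arrays, and the share of all genes with that pattern was not counted. The members were chosen with earlier results known, so these counts carry no test.

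**Figure D2:**
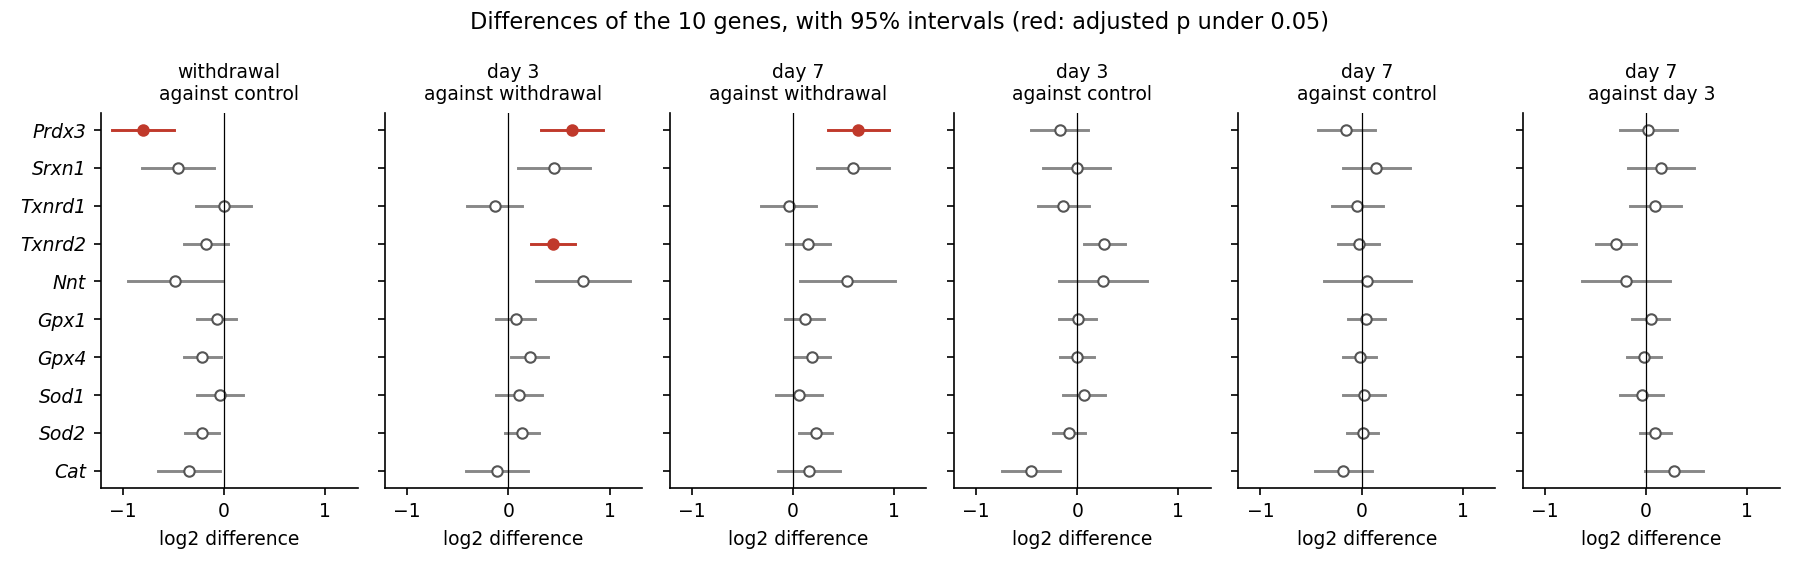
Log2 difference (horizontal axis) of each of the 10 genes (vertical axis) in the 6 comparisons. Points are estimates of the limma fit, lines are 95% intervals, and red marks an adjusted p under 0.05, reached by Prdx3 in 3 comparisons and by Txnrd2 in 1.

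Against control, limma called 0 of the 10 genes at day 3, where 0.131% of all genes passed, and 2 of 10 (Txnrd2 and Cat) had an unadjusted p under 0.05, as did 10% of all genes. At day 7 it again called 0 of the 10, with 0.0187% of all genes passing, and 0 of 10 had an unadjusted p under 0.05, against 5.95% of all genes. The largest day 7 differences from control in either direction were -0.18 ± 0.13 for Cat and 0.14 ± 0.15 for Srxn1. Between day 7 and day 3 limma called 0 of the 10 and 0 of all genes (0%), and 1 of the 10, Txnrd2, had an unadjusted p under 0.05, against 7.07% of all genes.

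Arrays of a group did not put the genes in 1 order. Withdrawal replicate 2 had the lowest Prdx3, Nnt and Sod1 of its group and the highest Srxn1, Txnrd2, Sod2 and Cat. Withdrawal replicate 3 had the highest Prdx3, Nnt, Txnrd1 and Sod1 and the lowest Srxn1, Txnrd2, Gpx1, Gpx4, Sod2 and Cat. Day 7 replicate 4 had the highest Srxn1, 6.55, and the lowest Gpx1 and Sod1 of its group.

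Related redox genes of 6 further lists were read in the same fit. Their counts are to be read beside the shares of all genes that passed, given above. In the list of other peroxiredoxins, thioredoxins and glutaredoxins, 1 of 15 measured genes fell at withdrawal and 0 rose, with a median of -0.09. It was Glrx5, the mitochondrial glutaredoxin of iron-sulfur cluster assembly, which fell by 0.64 ± 0.11 from 8.92 (limma, adjusted p = 0.00482, passing in 7 of 7 fits without 1 array). Glrx5 rose by 0.59 ± 0.11 at day 3 (adjusted p = 0.0119) and by 0.64 ± 0.11 at day 7 (0.00907). The day 3 rise was lost without withdrawal replicate 2 (adjusted p = 0.0611) or 3 (0.0526). At day 3 Txn2, the mitochondrial thioredoxin that Txnrd2 reduces, rose by 0.46 ± 0.09 (adjusted p = 0.0203), a call lost without withdrawal replicate 1 (0.073) or 2 (0.0782). Txnip, the thioredoxin-binding inhibitor, fell by 0.80 ± 0.14 at day 3 (adjusted p = 0.00863, and 0.0561 without withdrawal replicate 2). It was lower than at withdrawal by a fitted -0.61 ± 0.14 at day 7 (0.0443), which held in 1 of 7 such fits, the one without withdrawal replicate 3. Of the other peroxiredoxins, Prdx2 differed at withdrawal by -0.22 (adjusted p = 0.266) and Prdx4, that of the endoplasmic reticulum, by 0.46 (0.0966). Prdx1, Prdx5 and Prdx6 were not analysed here.

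Of 16 genes that supply NADPH, 4 fell at withdrawal, 0 rose and 12 did not pass, with a median of -0.15. Me1, the cytosolic malic enzyme, fell by 0.65 ± 0.12 from 9.22 (limma, adjusted p = 0.00609, in 7 of 7 fits without 1 array). The pentose phosphate enzyme Pgd fell by 0.59 ± 0.14 (adjusted p = 0.0242), the isocitrate dehydrogenase of cytosol and peroxisomes Idh1 by 0.45 ± 0.10 (0.0153) and the transaldolase Taldo1 by 0.34 ± 0.09 (0.0388). Pgd was lost without control replicate 1 (adjusted p = 0.0532), 3 (0.06) or 4 (0.0614) or withdrawal replicate 3 (0.0867), and Idh1 without withdrawal replicate 2 (0.0839). Taldo1 passed in 1 of 7 such fits, that without control replicate 2, with a highest adjusted p of 0.128. At day 3 none of the 16 passed, and at day 7 Me1 (0.57 ± 0.12, adjusted p = 0.0229) and Idh1 (0.41 ± 0.10, 0.0392) rose from withdrawal. Me1 then passed in 2 of 7 fits without 1 array (highest adjusted p 0.117, without withdrawal replicate 2) and Idh1 in 0 of 7 (0.17, without the same array). Idh2, the mitochondrial NADPH source, differed at withdrawal by 0.15 (adjusted p = 0.523).

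In the glutathione list 2 of 21 rose at withdrawal and 1 fell, with a median of 0.05. Ggt5, a cell-surface transpeptidase that cleaves glutathione conjugates, rose by 1.90 ± 0.20 from 4.52 (limma, adjusted p = 0.000114). The transferase Gstt1 rose by 0.96 ± 0.12 (adjusted p = 0.000403), and Gstk1, the transferase of mitochondria and peroxisomes, fell by 0.82 ± 0.12 (0.00163). These 3 passed in 7 of 7 fits without 1 array. At day 3 Ggt5 (-1.77 ± 0.20, adjusted p = 0.000494) and Gstt1 (-0.83 ± 0.12, 0.00264) fell back, and the glutathione synthetase Gss rose by 0.77 ± 0.13 (0.00535), so that 1 of 21 rose and 2 fell. At day 7 the same count held, with Ggt5 at -1.47 ± 0.20 (adjusted p = 0.00175), Gstt1 at -0.70 ± 0.12 (0.00936) and Gstk1 at 0.60 ± 0.12 (0.0222). Gstk1 was then lost without withdrawal replicate 2 (0.0808) or 3 (0.0847) or day 7 replicate 1 (0.0668) or 2 (0.0621). Glutathione reductase Gsr differed at withdrawal by 0.21 (0.402), and the rate-limiting synthesis enzyme Gclc by 0.05 (0.911).

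Genes of the NRF2 pathway, which induces many antioxidant enzymes, mostly did not pass: 1 of 17 fell at withdrawal and 0 rose, with a median of 0.02. The gene that fell was Osgin1, by 0.97 ± 0.21 (limma, adjusted p = 0.0184), lost without control replicate 1 (0.0532) or withdrawal replicate 1 (0.0747) or 2 (0.0603). Nfe2l2, which encodes NRF2, differed by 0.15 (adjusted p = 0.62), Nqo1 by -0.04 (0.96) and Hmox1 by -0.31 (0.612). Of 10 selenoprotein synthesis genes, which serve the selenocysteine enzymes Gpx1, Gpx4, Txnrd1 and Txnrd2, Sephs2 fell by 0.94 ± 0.19 (adjusted p = 0.0103, and 0.0627 without withdrawal replicate 2) and Selenop, the plasma selenium carrier, rose by 0.40 ± 0.11 (0.0466). Selenop passed in 1 of 7 fits without 1 array, that without withdrawal replicate 3. In both lists 0 genes passed at day 3 or day 7 against withdrawal.

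Among 20 superoxide and peroxide sources and other scavengers, 6 rose at withdrawal and 3 fell, with a median of 0.04. Of these calls, the least stable passed in 0 of 7 fits without 1 array and the next in 2 of 7, both of them rises. Subunits of the phagocyte NADPH oxidase rose: Cyba by 1.20 ± 0.19 (limma, adjusted p = 0.0024), Ncf4 by 1.15 ± 0.20 (0.00487) and the GTPase Rac2 by 1.21 ± 0.25 (0.0117). Cyba and Ncf4 passed in 7 of 7 fits without 1 array, and Rac2 was lost without withdrawal replicate 1 (0.0604) or 2 (0.0619). Xdh, the xanthine dehydrogenase, fell by 1.46 ± 0.14 from 6.59 (adjusted p = 6.12e-05, 7 of 7). From withdrawal to day 3 Xdh rose by 0.90 ± 0.14 (0.00382), Ccs, the copper chaperone of Sod1, rose by 0.58 ± 0.11 (0.0118), Ncf4 fell by 1.18 ± 0.20 (0.00674) and Ncf1 fell by 0.72 ± 0.16 (0.0324). Ncf1 was lost without withdrawal replicate 2 (0.156) or 3 (0.0716) or day 3 replicate 1 (0.0885) or 3 (0.0728). From withdrawal to day 7, 2 of the 20 rose (Xdh and Ccs) and 2 fell (Ncf4 and Ncf1). Ncf1 then passed in 2 of 7 fits without 1 array. At day 3 and day 7 against control 0 genes of these 6 lists passed by limma.

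**Figure D3:**
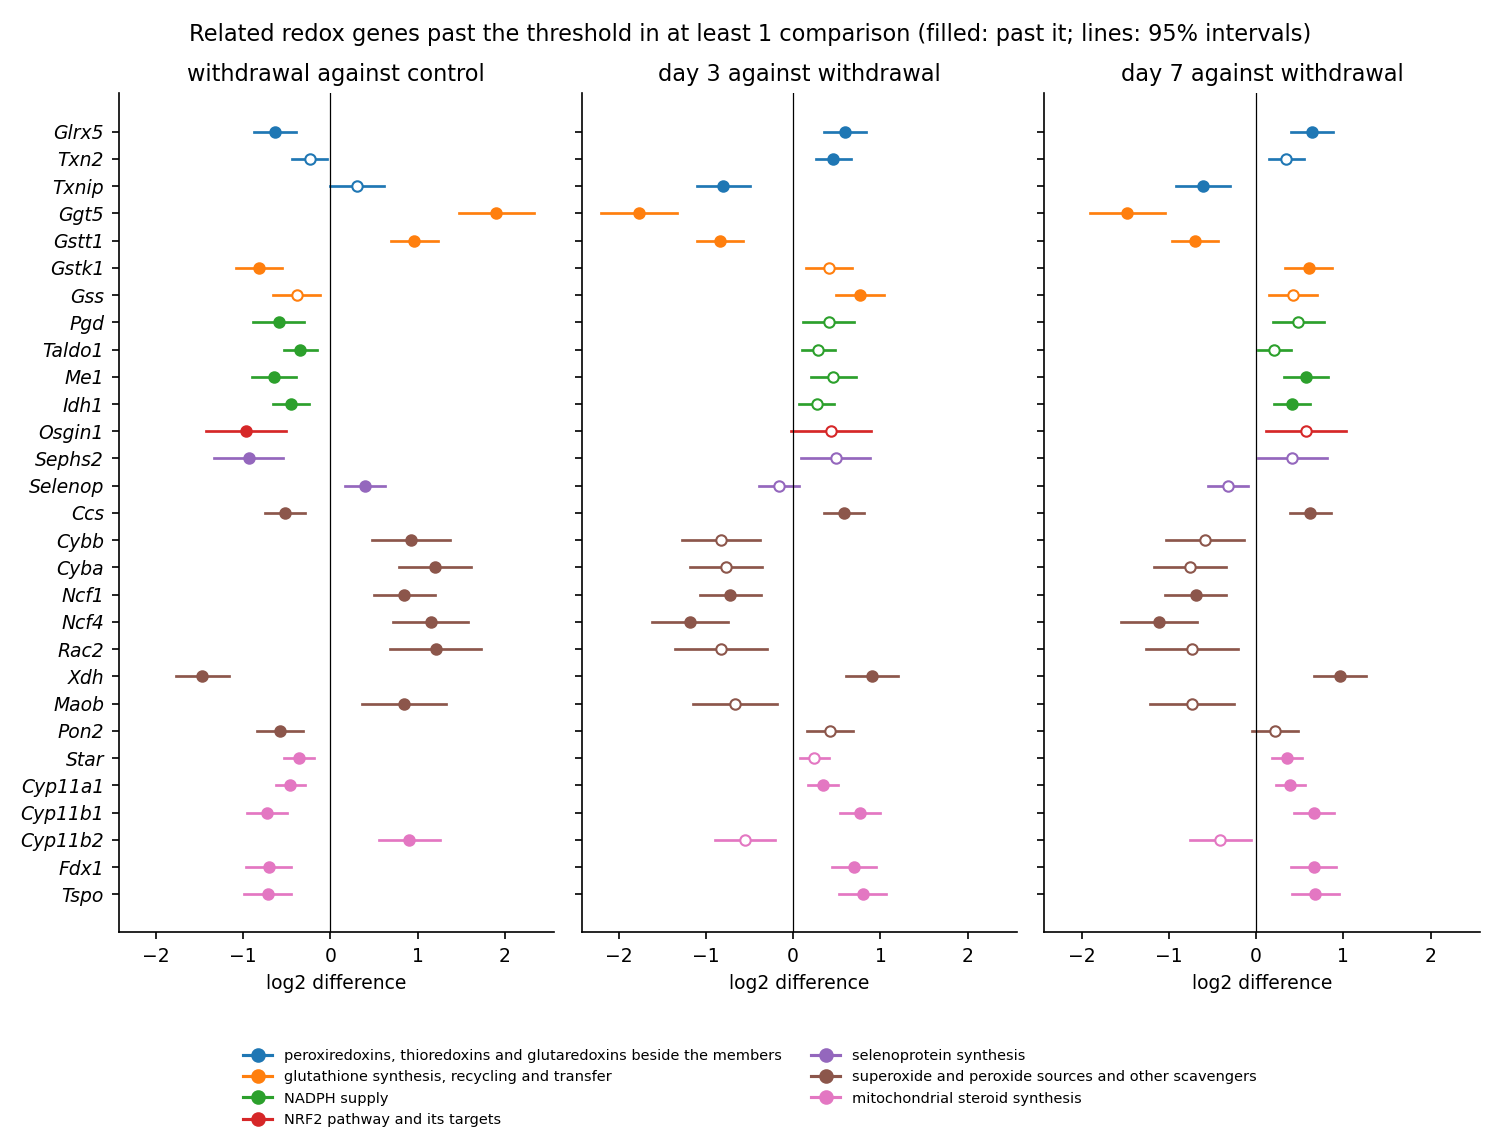
Log2 difference (horizontal axis) of the related redox and steroid synthesis genes that passed in at least 1 comparison (vertical axis, coloured by list) in 3 comparisons. Points are limma estimates, filled where the adjusted p was under 0.05, and lines are 95% intervals. Me1 and Glrx5 lie left of 0 at withdrawal, and Cyba, Ncf4 and Ggt5 lie right of it.

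Some cell type markers also differed between withdrawal and control. In whole glands, fewer cells of a type and less RNA per cell cannot be told apart. Of 8 cortex markers 5 fell at withdrawal and 0 rose, with a median of -0.41, and their summed linear level ran from 7846 to 8147 in control and from 5033 to 5595 at withdrawal. At day 3 the sum ran from 7279 to 8093 and at day 7 from 7508 to 8000. Of 6 mitochondrial steroid synthesis genes 5 fell and 1 rose at withdrawal, the latter Cyp11b2, with Cyp11b1 at -0.73 ± 0.11, Tspo at -0.72 ± 0.13 and Fdx1 at -0.71 ± 0.12 beside the -0.80 ± 0.14 of Prdx3. Of 12 macrophage markers 11 rose at withdrawal, and their sum ran from 1054 to 1190 in control and from 2931 to 4258 at withdrawal. It ran from 1757 to 2905 at day 3 and from 1336 to 2668 at day 7. From withdrawal, 6 of the 12 fell at day 3 and 8 at day 7. Against control, 1 of the 12 was higher past the threshold at each of these times. The sum of 8 endothelial markers was 1209 to 1336 in control and 967 to 1003 at withdrawal, where 1 of 8 fell. Of 5 zona glomerulosa markers 3 rose at withdrawal, and of 5 adipocyte, 4 liver and 5 kidney markers limma called 0. Of 7 medulla markers 1 rose at withdrawal, with sums of 4598 to 6143 in control and 6123 to 6570 at withdrawal. The part of these cell types in the fall of Prdx3, and that of macrophages in the rise of the oxidase subunits, was not tested.

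**Figure D4:**
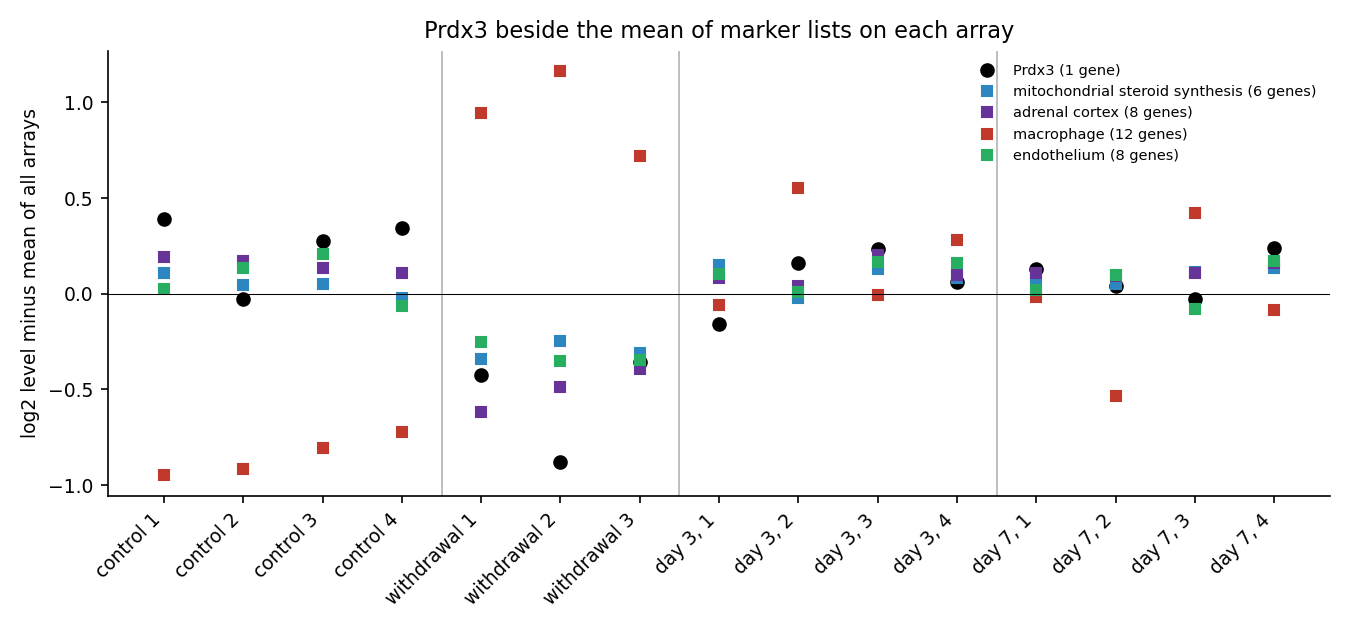
Log2 level of Prdx3 and mean log2 level of 4 gene lists on each array, each minus its mean over all 15 arrays (vertical axis), with the arrays by group (horizontal axis). Prdx3, the cortex, steroid synthesis and endothelial lists are lowest on the 3 withdrawal arrays, where the macrophage list is highest.

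The genes with the profile closest to a member were taken from 8253 genes with a mean level of at least 4, by the root mean square difference of mean-centred values over 15 arrays. For Prdx3 they were Lrp5 (0.105), Acly (0.105), Laptm4b (0.114), Ccdc160 (0.123) and Plpp3 (0.141), where the median over all these genes was 0.373. Lrp5 is a WNT co-receptor, and Acly makes cytosolic acetyl-CoA for lipid synthesis. For Srxn1 they were Emc8 (0.115), Bak1 (0.137), Ctsf (0.144), Srm (0.149) and Acads (0.153), with a median of 0.345. Emc8, a subunit of the membrane protein insertion complex of the endoplasmic reticulum, also had its highest value on day 7 replicate 4. The choice by likeness favours such shared arrays, so this adds no separate evidence. For Txnrd2 they were Mc2r (0.117), the ACTH receptor, and Pter, Lims1, Mrps18a and Rhbdd1 (0.119 to 0.124), with a median of 0.265 and 78 genes within 0.15. For Nnt they were ND3 (0.187), Paqr8 (0.219), Rps15a-ps5 (0.222), Fra10ac1 (0.236) and Timm8a1 (0.246), with a median of 0.417.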

How the data were processed

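RNA of 15 adrenal samples was hybridised to 1 array each, and sample titles gave the groups. The deposited log2 values were made by RMA with oligo, according to the submitters' processing notes that came with the samples; versions, annotation and filters: not given in the sources used here. RMA fits all probes of a probe set across arrays, which can compress small differences. Of 32736 probe sets, 22399 had 1 gene symbol and were used, 1607 had several and 8730 none. For the 807 genes with several probe sets, that of highest mean was taken, which left 21439 genes. The Entrez identifiers of the 10 members matched RefSeq. The model was lmFit and eBayes of limma 3.58.1 (R 4.3.3) over 4 groups. Benjamini-Hochberg adjustment ran across 21439 genes for each comparison, with a threshold of 0.05. The model was also run on simulated arrays with known changes, and that run is not used as support for the calls here. Groups were called non-overlapping where all arrays of one lay beyond all of the other.

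The members, gene lists and alternatives were chosen with earlier results of these data known. Every member is plotted in every main comparison, though the text does not give each of these differences. From each related list at most 4 genes past the threshold were named, by size of difference. Genes named with a p over the threshold were chosen after their values were seen. The likeness rule named 5 genes each for Prdx3, Srxn1, Txnrd2 and Nnt. The number of arrays limits the precision, and each p-value sets a group difference against the spread between these arrays. Alternatives were median centring, a further quantile normalization, a filter that kept probe sets at 3 or above on at least 3 arrays, other probe set choices, trend and robust options, only the groups compared, a replicate block and each array left out. Same-numbered arrays did not deviate together: 0 of 21 pairs correlated over 0.1 (median -0.04).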

Additional observations from a re-analysis of the deposited data

Results flagged for a closer look

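Among the 10 members and the related genes past the threshold, 39 genes were screened in the 3 groups of 4 arrays, and 4 of 117 sets of 4 had 1 array far from the other 3; chance gives about 1 in 20. Sod2 on control replicate 2 was 8.31, over the other controls at 8.12 to 8.14. Cybb, the catalytic subunit of the phagocyte oxidase, was 6.45 on the same array, with the next control at 5.66. Me1 on control replicate 1 was 8.98, under the other controls at 9.27 to 9.33. Txn2 on day 7 replicate 4 was 8.00, while the other 3 day 7 arrays had the same value of 7.81. With 3 equal values the rule flags any differing value on the remaining array, so the Txn2 flag carries no weight.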

How the results depend on the processing

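The fall of Prdx3 at withdrawal passed under 8 of 8 other settings and in 7 of 7 fits with an array left out. The count of members called between withdrawal and day 3, which was 2, became 1 with a further quantile normalization (Prdx3 lost, adjusted p = 0.0565), 0 with only the groups compared and 0 with the replicate block, and ran from 0 to 1 without 1 array. Between withdrawal and day 7 the count of 1 became 0 with only the groups compared and 0 with the replicate block, and ran from 0 to 1 without 1 array. With the block, Prdx3 had adjusted p of 0.0771 at day 3 and 0.0695 at day 7, and Txnrd2 0.11 at day 3; with only the groups compared these were 0.133, 0.0922 and 0.148. Counts of all genes called at withdrawal, day 3 and day 7 were 921, 483 and 404, against 524, 161 and 154 with only the groups compared and 544, 257 and 221 with the block, and at least 459, 209 and 200 without 1 array. Day 7 against withdrawal gave 630 with the filter on dim probe sets. Day 3 against control gave 28, and from 4 (block) to 91 (trend and robust options) otherwise; day 7 against control gave 4, and from 0 to 9. No call of a member changed sign; differences of members that did not pass crossed 0 in 38 cases with an array left out and in 6 under other settings. Of the 26 calls of related genes at withdrawal, 14 held in every fit without 1 array, as did 9 of 14 at day 3 and 9 of 16 at day 7. Fewer recovery calls held under every other setting: 16 of 26 at withdrawal, 6 of 14 at day 3 and 2 of 16 at day 7, those of Ggt5 and Xdh. With only the groups compared, 7, 8 and 14 of these calls were lost. The 14 lost at day 7 include Glrx5 (adjusted p = 0.0773), Gstt1 (0.07), Ccs (0.0537) and Ncf4 (0.0645), and the 8 at day 3 include Glrx5 (0.101), Ccs (0.0503) and Ncf4 (0.0724). Cyp11a1 was lost at withdrawal with the probe set of largest variance (adjusted p = 0.532). The cause of these changes was not tested.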

Other observations

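ND3, a complex I gene of the mitochondrial genome and the closest profile to Nnt, was low on the arrays where Nnt was low: 10.05 and 10.01 on withdrawal replicates 1 and 2 and 10.06 on day 7 replicate 3. On withdrawal replicate 3 ND3 stood at 10.75, where Nnt was 6.51, and the other arrays of ND3 ran from 10.43 to 10.86. By limma ND3 passed in none of the 6 comparisons, with the lowest adjusted p, 0.23, between withdrawal and day 3. ND3 was picked for its likeness to Nnt on these same arrays, so the shared low arrays add no separate evidence.

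Liver transcripts varied within groups. Alb ran from 1.28 to 5.82 in control, from 2.86 to 2.98 at withdrawal, from 1.78 to 8.24 at day 3 and from 2.80 to 5.98 at day 7. Ttr stood at 7.27 on day 3 replicate 1, and at 3.37 on day 3 replicate 2.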
